A study of Bos taurus with 36 samples.

Results

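The comparison set 9 heart libraries against 8 liver libraries, 17 of the 36 libraries of the study. Members were all libraries that the labels give to either organ, and all genes of the count table entered in both directions. The organs came from male bovine fetuses of 42 days of gestation, dissected whole, so each library holds the RNA of every cell type of the organ. Every fetus had grown from a Day 7 embryo. In the group ET_D7 the recipient heifer was on Day 7 of the cycle at transfer, and in the group ET_D9 she was on Day 9, so that embryo and uterus were out of step. The fetuses are numbered here by weight. The hearts came from fetuses 1 to 5 (ET_D7) and 6, 8, 9 and 10 (ET_D9), and the livers from fetuses 1 to 5 (ET_D7) and 8, 9 and 10 (ET_D9). No fetus in either group was without an embryo transfer, and the groups do not overlap in fetal weight.

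At this stage of gestation the heart is a beating, chambered muscle. Its muscle cells contract when calcium released from internal stores lets myosin pull on actin, and they secrete natriuretic peptides. The embryonic liver has other tasks. Its hepatoblasts already secrete plasma proteins, and the spaces between them are the main site of red blood cell formation in the fetus. Both organs also contain endothelium and connective tissue, and both are full of blood. In whole organs, fewer cells of a type and less RNA per cell cannot be told apart, which holds for every level given here.

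The hearts held 20930367 to 35857434 counts per library (median 31457990) and the livers 18231089 to 34454772 (median 23672729). The liver libraries were compared with each other before any gene was tested, by a chi-square of the counts of each pair over 8696 genes with at least 100 counts in every liver library. A value near 1 per gene is sampling noise. The 27 other pairs of livers had values from 55.6 to 500 (median 171), and the 36 pairs of hearts from 24.8 to 1305. The livers of fetuses 1 and 2 had a value of 0.78, so they differed by less than the sampling noise, and their mean was counted as 1 sample. The counts of the liver of fetus 9 were matched within sampling noise by a sum of 0.383 times those of fetus 8 and 0.525 times those of fetus 10, with a chi-square of 0.61 per gene. The best such sum of 2 other libraries left 109 to 138 per gene for the livers of fetuses 3, 4, 5, 8 and 10, and 11.1 to 131 for the hearts. The liver of fetus 9 was therefore left out of the tests. All tests below compare 9 hearts with 6 distinct liver samples. Named genes whose call ended with all 8 libraries as deposited are pointed out. Counts of called genes per list are those over the 6 liver samples, and several differed with all 8. For example, 33 nuclear genes of the respiratory chain were then higher in the heart in place of 31, and 2 HOX genes in place of 1.

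**Figure D1:**
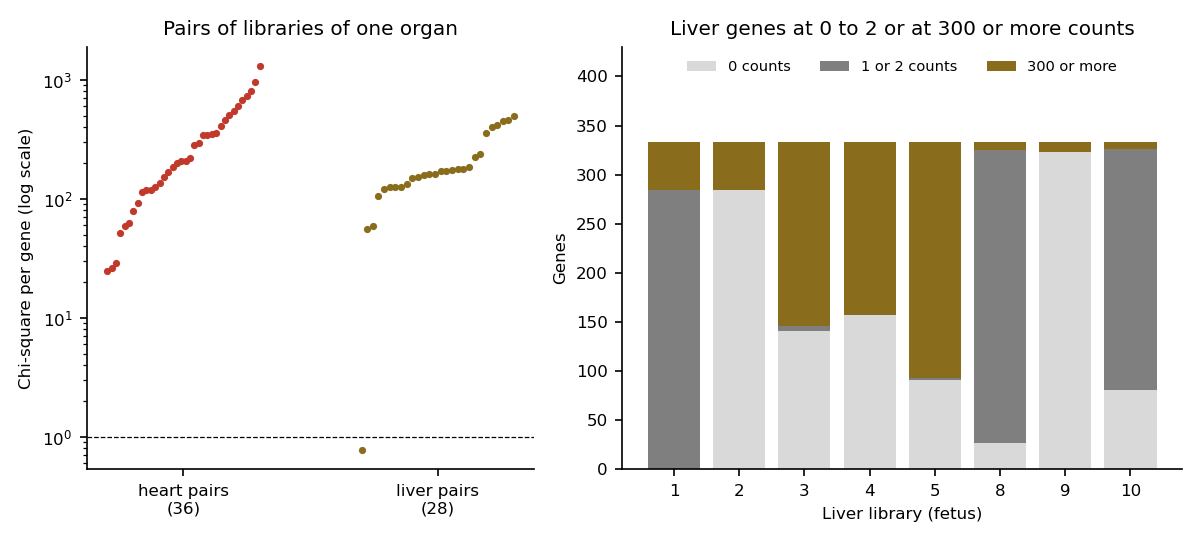
Left, the chi-square per gene of each pair of libraries of the same organ, on a log scale, with 1 point per pair and a dashed line at 1. The pair of livers from fetuses 1 and 2 lies at 0.78, below all other pairs. Right, for the 333 liver genes that hold at most 2 counts in some liver libraries and at least 300 in all others, the number of genes at 0 counts (pale), at 1 or 2 counts (grey) and at 300 or more (gold) in each of the 8 liver libraries. The livers of fetuses 8, 9 and 10 hold 325, 323 and 326 of these genes at the low value, and that of fetus 5 holds 93.

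The organ labels were checked first on genes that define each organ. The unit here is CPM, the counts of a gene relative to the library total after TMM normalization over the 15 samples, with each group given by its lowest, median and highest sample. MYL3 (Entrez 618352), a myosin light chain of heart muscle, ran 1956, 3419 and 4199 CPM in the hearts and 0, 0.292 and 0.590 CPM in the livers. MYBPC3 (Entrez 767614), which binds myosin in the thick filament, ran 2678, 3995 and 5332 CPM in the hearts and 0.855, 2.19 and 2.82 CPM in the livers. AFP (Entrez 506011), the main plasma protein of the fetus, ran 5207, 7708 and 11556 CPM in the livers and 0, 0.848 and 1.82 CPM in the hearts. ORM1 (Entrez 497200), an acid glycoprotein of plasma, ran 1726, 2738 and 3887 CPM in the livers and 0, 0.373 and 0.998 CPM in the hearts. No heart fell into the range of the livers for any of these 4 genes, and each of the 15 samples matched its organ label.

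The organs differed in a majority of the genes tested. Of 23869 genes with a count in any of the 15 samples, 12811 (53.7%) passed an adjusted p-value of 0.05 in edgeR's quasi-likelihood test. Higher in the heart were 5682 (23.8%) and higher in the liver 7129 (29.9%). With a fold change over 2 as well, these were 4126 (17.3%) and 5742 (24.1%). With the fetus as a block, over the 5 fetuses with 2 distinct organs, 4150 genes were higher in the heart and 4241 in the liver. Of these, 3505 and 3689 were over 2-fold. With the block over all 8 livers as deposited, 5766 were higher in the heart and 5218 in the liver, 4192 and 3946 of them over 2-fold. The larger number on the liver side did not hold in this last fit. That fit counts the nearly identical livers, and the liver matched by a sum of others, as separate samples, so nothing is drawn from it. With the block over distinct livers the liver side kept the larger number, by a small margin (4241 against 4150). The median log2 fold change over all genes, heart minus liver, was −0.10 over the 15 samples, and the p-values rest on the spread between fetuses. By the median SD on the log2 CPM scale the livers varied more, 0.407 against 0.290 in the hearts over 12265 genes. The lowest correlation of a pair over these genes was in the hearts, 0.884 against 0.925 in the livers.

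The liver side held more of the large differences. Fold changes over 16 were fitted for 722 of the genes called higher in the heart and for 2103 called higher in the liver, and log2 fold changes over 8 in size for 72 and 338. A large fitted fold was not always a separation of the samples. Of the 2103 liver genes over 16-fold, 870 (41.4%) were higher in every liver than in every heart, and 1234 (58.7%) had at most 2 counts in at least 1 of the livers themselves. Of the 722 heart genes, 430 (59.6%) were higher in every heart than in every liver, and 298 (41.3%) had at most 2 counts in at least 1 heart. Over all genes, 3276 (13.7%) were higher in every heart than in every liver and 3312 (13.9%) higher in every liver than in every heart. Without the livers of fetuses 3, 4 and 5, which hold high values of genes at 0 or 1 count in other livers, 1475 liver genes and 793 heart genes were over 16-fold.

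By kind of gene, the heart calls were mostly protein coding. Of 18198 protein-coding genes tested, 5087 were higher in the heart and 5608 in the liver. Of 1938 long noncoding RNA genes, 279 (14.4%) were higher in the heart and 560 (28.9%) in the liver. Pseudogenes gave 85 (6.42%) and 304 (23.0%) of 1324.

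**Figure D2:**
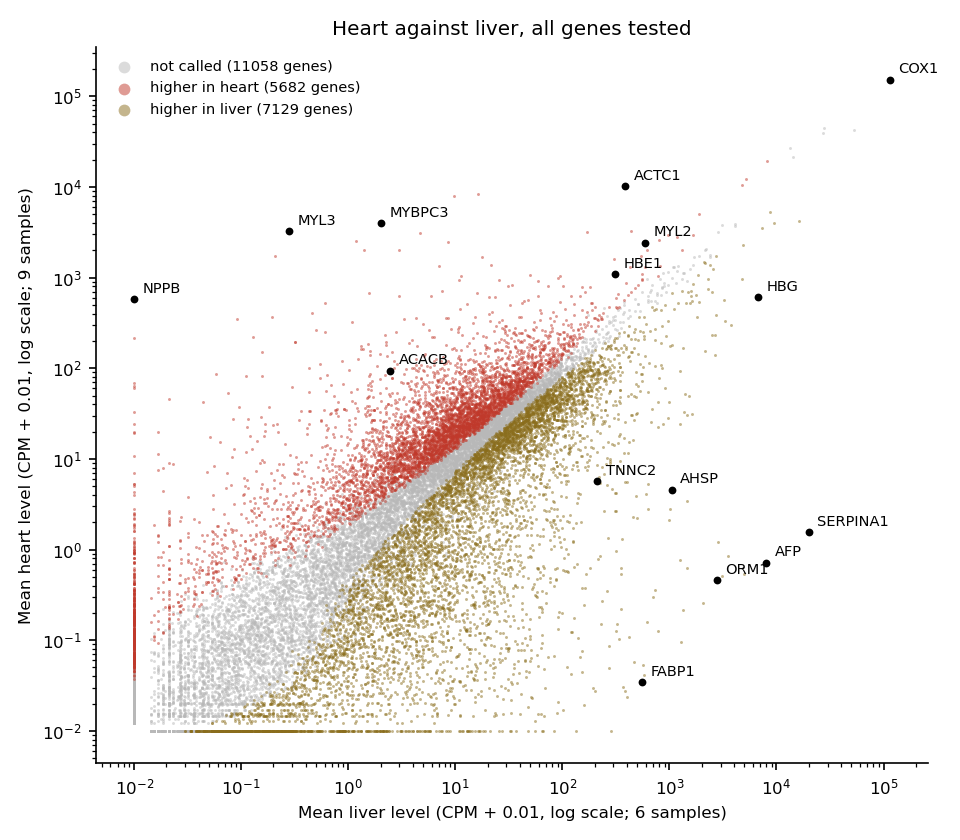
Mean level of each of the 23869 genes tested in the liver (horizontal, 6 samples) and in the heart (vertical, 9 samples), both as CPM plus 0.01 on log axes, with 1 point per gene. Red genes were higher in the heart (5682), gold genes higher in the liver (7129) and grey genes not called. SERPINA1, AFP, ORM1 and FABP1 lie far below the diagonal, NPPB, MYL3 and MYBPC3 far above it, and COX1 near it at the top right.

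The peptide hormones of the heart gave the largest difference on its side. NPPB (Entrez 508734), B-type natriuretic peptide, ran 304, 550 and 765 CPM in the hearts and had 0 counts in every liver, at least 28046-fold higher in the heart (adjusted p = 9.50e-12, edgeR). NPPA (Entrez 281355), A-type natriuretic peptide, ran 98.9, 196 and 363 CPM in the hearts and had 0 counts in every liver, at least 12044-fold higher (adjusted p = 3.76e-10, edgeR). Neither gene was detectable in the liver at this depth. CORIN, the protease that activates these peptides, was higher in the heart by 6.96 ± 0.334 (SE) on the log2 scale, with 124, 163 and 194 CPM in the hearts against 0.467, 1.26 and 2.15 CPM in the livers. Of the 6 genes tested for this group, 5 were higher in the heart, where 23.8% of all genes were. NPR1, the receptor of both peptides, was not called, at 3.54 ± 1.38 CPM in the heart (SD, n = 9) against 2.63 ± 1.48 CPM in the liver (SD, n = 6).

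The contractile apparatus separated the organs next. Of 24 sarcomere genes tested, 22 were higher in the heart and 0 in the liver, with a median log2 fold change of 7.13 beside −0.10 over all genes. MYH6, the alpha heavy chain of cardiac myosin, ran 1173, 1353 and 2704 CPM in the hearts and 0, 0.0328 and 0.596 CPM in the livers, a log2 fold change of 12.99 ± 0.751 (SE). TNNI3, the inhibitory troponin of heart muscle, ran 1642, 2679 and 3023 CPM in the hearts and 0.391, 0.976 and 2.43 CPM in the livers, 11.06 ± 0.464 higher on the log2 scale. LMOD2, which sets the length of thin filaments, had 30.1, 54.1 and 108 CPM in the hearts and 0 counts in every liver, at least 3304-fold higher. In none of these 3 genes did a liver come near the lowest heart.

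The exceptions among the sarcomere genes lay in a few livers. MYL2, the ventricular myosin light chain, was not called (log2 fold change 2.04, adjusted p = 0.205, edgeR), although it ran 1879, 2216 and 3211 CPM in the hearts. Its liver values were 1912 CPM in fetus 3, 1303 in fetus 4 and 319 in fetus 5, and at most 0.0506 CPM in the other livers. ACTC1, cardiac actin, was called higher in the heart by 4.72 ± 1.27 (SE), with 1495, 504 and 281 CPM in the livers of fetuses 3, 4 and 5, 34.0 in fetus 8 and at most 1.06 in the others. The defining genes MYL3 and MYBPC3 stayed at or below 0.415 and 2.57 CPM in those same 3 livers, and the part of heart tissue in the values of MYL2 and ACTC1 was not tested. MYOM2, a protein of the M-line, was also not called, at 27.0 ± 3.73 CPM in the heart (SD, n = 9) against 10.8 ± 17.8 CPM in the liver (SD, n = 6). Without the livers of fetuses 3, 4 and 5 all 24 sarcomere genes were higher in the heart, MYL2 by 16.31 on the log2 scale (adjusted p = 1.54e-11, edgeR), and the median was 9.33. With the fetus as a block over the 5 fetuses with 2 distinct organs MYL2 did not pass (3.68, adjusted p = 0.297, edgeR). Nor did it with all 8 livers as deposited and no block (2.44, adjusted p = 0.164, edgeR). With the block over all 8 livers it passed (11.06, adjusted p = 0.0211, edgeR). That fit counts the livers of fetuses 1, 2 and 9 as separate samples, so nothing is drawn from it. The summed level of the list ran 44159 to 61984 CPM in the hearts and 254 to 3977 CPM in the livers.

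**Figure D3:**
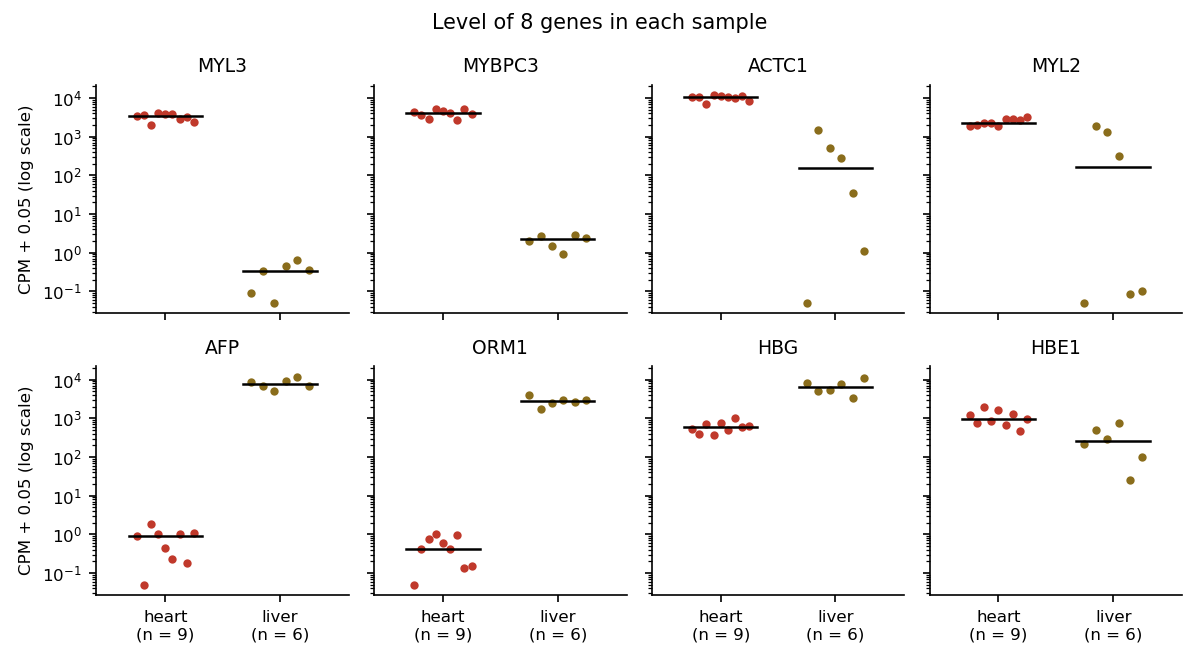
Level of 8 genes in each sample as CPM plus 0.05 on a log axis, hearts in red (n = 9) and livers in gold (n = 6), with a black line at the median. MYL3, MYBPC3, AFP, ORM1 and HBG separate the organs without overlap. ACTC1 and MYL2 spread over orders of magnitude among the livers, and the ranges of MYL2 and of HBE1 overlap between the organs.

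Genes of excitation and calcium handling followed the sarcomere at smaller differences. Of 23 tested, 17 were higher in the heart and 2 in the liver (median log2 fold change 4.54). POPDC2, a membrane protein of cardiac conduction, ran 257, 382 and 431 CPM in the hearts and 0, 0.0259 and 0.340 CPM in the livers, 12.27 ± 0.486 (SE) higher on the log2 scale. KCNJ5, a subunit of the potassium channel that slows the heart under vagal input, had 56.6, 77.2 and 116 CPM in the hearts and 0, 0.0778 and 0.374 CPM in the livers. RYR2, the calcium release channel of heart muscle, stood at 948 ± 206 CPM in the heart (SD, n = 9) against 25.6 ± 13.1 CPM in the liver (SD, n = 6). The groups did not overlap for any of these genes. The 2 genes against the direction of the list were also potassium channels. KCNJ3, the partner of KCNJ5 in that channel, was higher in every liver, at 51.1, 68.6 and 125 CPM against 16.4 to 37.8 CPM in the hearts (log2 fold change −1.50, adjusted p = 3.95e-06, edgeR). KCNJ2, which sets the resting potential, was higher in the liver by a log2 fold change of −2.05 with overlapping groups, and with the fetus as a block over all 8 livers as deposited it did not pass (−1.11, adjusted p = 0.396, edgeR).

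Among transcription factors of heart formation, 17 of 22 were higher in the heart and 0 in the liver (median 2.20). NKX2-5, an early regulator of heart muscle identity, ran 40.4, 67.3 and 94.6 CPM in the hearts and had 0 counts in every liver, at least 3378-fold higher. IRX4, a factor of the ventricles, ran 149, 353 and 545 CPM in the hearts and 0, 0 and 1.02 CPM in the livers, 10.75 ± 0.808 (SE) higher on the log2 scale. GATA4, which is also used by the liver and its surrounding mesenchyme, differed less, with 225 ± 47.3 CPM in the heart (SD, n = 9) against 48.6 ± 9.49 CPM in the liver (SD, n = 6). PROX1, which is listed among the factors of both organs, was higher in the heart by 1.02 (adjusted p = 0.000239, edgeR), at 19.3, 34.7 and 54.3 CPM against 13.6, 16.2 and 19.4 CPM, where the lowest heart fell inside the range of the livers.

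Other genes near the top of the heart side were part of muscle. TRIM55, a ubiquitin ligase of the sarcomere, was higher in the heart by 10.57, ANKRD1, a nuclear and titin-bound stretch response protein, by 10.45, SMPX, a small protein of striated muscle, by 10.00, and MB, the oxygen-binding myoglobin, by 9.78 on the log2 scale. Each had at least 81.6 CPM in every heart and at most 2.62 CPM in every liver.

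The supporting cells of the heart were seen as well. Of 19 genes of epicardium, valve and fibroblasts, 15 were higher in the heart and 0 in the liver (median 2.37). LUM, a proteoglycan of connective tissue, ran 10.0, 34.0 and 168 CPM in the hearts against 0, 1.18 and 4.95 CPM in the livers (log2 fold change 4.99), and TCF21, a factor of epicardium and fibroblasts, 29.0, 48.9 and 59.8 CPM against 0, 1.92 and 3.83 CPM (4.79). Neither gene overlapped between the organs. Of 8 genes of smooth muscle and pericytes, 7 were higher in the heart, among them CNN1 and TAGLN, actin-binding proteins of smooth muscle, by 6.38 and 4.68. PDGFRB, a receptor of pericytes that hepatic stellate cells also carry, was higher in every liver, at 72.1, 95.1 and 122 CPM against 39.2, 52.0 and 59.2 CPM in the hearts, a log2 fold change of −0.95.

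Endothelial genes went both ways. Of 16 tested, 10 were higher in the heart and 3 in the liver (median 1.05). EMCN, a surface protein of endothelium that also lines the heart chambers, ran 53.2, 79.5 and 111 CPM in the hearts and 3.17, 4.48 and 5.17 CPM in the livers, and PECAM1, an adhesion molecule of all endothelium, was higher in the heart by 2.72. The 3 genes on the liver side were STAB2 (log2 fold change −5.45), LYVE1 (−3.95) and VWF (−2.19). STAB2, a scavenger receptor, and LYVE1, a receptor for hyaluronan, are known from the sinusoids of the liver, and VWF, which carries clotting factor VIII, is made by endothelium and megakaryocytes. All 5 genes separated the organs without overlap. The 10 megakaryocyte genes described with the blood cells were higher in the liver too, and their part in the level of VWF was not tested.

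Plasma proteins gave the largest differences of the comparison on the liver side. Of 24 tested, 23 were higher in the liver and 0 in the heart, with a median log2 fold change of −11.76, where 29.9% of all genes were higher in the liver. SERPINA1, the inhibitor of neutrophil elastase, ran 11630, 21861 and 25687 CPM in the livers and 0.716, 1.56 and 2.81 CPM in the hearts, a log2 fold change of −13.65 ± 0.494 (SE). KNG1, the precursor of bradykinin, ran 351, 375 and 528 CPM in the livers and 0, 0 and 0.125 CPM in the hearts, −14.40 ± 0.406. No heart came near a liver in either gene. ALB, albumin, stood at 1257 ± 369 CPM in the liver (SD, n = 6) and 0.754 ± 0.355 CPM in the heart (SD, n = 9). CP, the copper carrier ceruloplasmin, was the gene of the list that was not called, at 0.544 ± 0.280 CPM in the liver (SD, n = 6) and 0.746 ± 0.196 CPM in the heart (SD, n = 9). The summed level of the list ran 34882 to 58741 CPM in the livers and 66.6 to 93.9 CPM in the hearts.

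Lipid carriers and clotting factors followed the plasma proteins. Of 12 genes of apolipoproteins and lipid export, 11 were higher in the liver and 1 in the heart (median −5.32). APOA2, a protein of high-density lipoprotein, ran 2084, 5721 and 6366 CPM in the livers and 0.124, 0.447 and 1.03 CPM in the hearts, and APOB, the scaffold of the particles that export fat, 931, 1402 and 1864 CPM against 0, 0.171 and 0.524 CPM. The gene on the heart side was PLTP, a phospholipid transfer protein made in many tissues, by 1.43 with overlapping groups. Of 25 genes of coagulation and complement, 22 were higher in the liver and 0 in the heart (median −7.68). FGA, the alpha chain of fibrinogen, ran 836, 1380 and 1822 CPM in the livers and 0, 0.0993 and 0.211 CPM in the hearts. F9, clotting factor IX, ran 31.2, 36.2 and 45.3 CPM in the livers and had 0 counts in every heart, at least 3541-fold higher in the liver.

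Of 18 hepatocyte transcription factors, 16 were higher in the liver and 1, PROX1, in the heart (median −5.80). FOXA2, a factor of gut endoderm that opens liver genes, ran 22.4, 33.6 and 38.6 CPM in the livers and had 0 counts in every heart, at least 3111-fold higher in the liver. HNF4A, a nuclear receptor that maintains the hepatocyte program, ran 42.2, 68.0 and 78.3 CPM in the livers and 0, 0.0857 and 0.279 CPM in the hearts, a log2 fold change of −9.16 ± 0.503 (SE). FOXA1 was at least 122-fold higher in the liver, again with 0 counts in every heart.

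Of 20 genes of the urea cycle, amino acid breakdown and gluconeogenesis, 18 were higher in the liver and 0 in the heart (median −5.47). AGXT, which detoxifies glyoxylate, ran 145, 175 and 300 CPM in the livers and 0, 0 and 0.127 CPM in the hearts, and OTC, an enzyme of the urea cycle, 132, 156 and 173 CPM against 0, 0 and 0.134 CPM. FTCD, which breaks down histidine, and VTN and SPP2, secreted proteins, were also among the 12 largest folds on the liver side, at log2 fold changes of −14.08, −13.44 and −13.80, with at most 0.187 CPM in any heart. APOH, a phospholipid-binding plasma protein, had a log2 fold change of −13.87. The first gene of that ranking, the unnamed locus LOC781927, ran 58.6, 136 and 186 CPM in the livers with 0 counts in every heart, at least 12695-fold higher.

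Cholesterol genes moved less than the plasma proteins. Of 21 genes of cholesterol and bile acid, 15 were higher in the liver and 1 in the heart (median −1.76). CYP8B1, which shapes the bile acid pool, ran 5.27, 9.70 and 13.1 CPM in the livers and 0, 0 and 0.0624 CPM in the hearts, and ABCB11, the bile salt export pump, 7.39, 10.1 and 16.7 CPM against 0, 0.124 and 0.465 CPM. CYP7A1, the rate-limiting enzyme of bile acid synthesis, stayed near its detection limit in both organs, at most 0.456 CPM in the livers and 0.0897 CPM in the hearts. The gene on the heart side, CYP27A1, a mitochondrial sterol hydroxylase found in many tissues, was higher there by 1.37 with overlapping groups. Of 17 genes of drug metabolism, 14 were higher in the liver and 1 in the heart (median −3.95). The gene on the heart side was FMO1, a flavin monooxygenase, which had at most 0.600 CPM in any sample, and its call ended with the fetus as a block (adjusted p = 0.189, edgeR) and without fetus 4, 5, 9 or 10 (0.0520 to 0.0615). With all 8 livers as deposited it stood at 0.32 (adjusted p = 0.838, edgeR). UGT2B10, a glucuronosyltransferase, had 1 count over all hearts, a ratio of 687 with a 95% counting interval of 123 to 27116.

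Red blood cell genes gave the second theme of the liver. Of 27 erythroid genes tested, 26 were higher in the liver and 0 in the heart (median −4.25), and all 26 were higher in every liver than in every heart. AHSP, the chaperone of alpha globin, ran 724, 1050 and 1379 CPM in the livers and 4.16, 4.35 and 5.32 CPM in the hearts, a log2 fold change of −7.85 ± 0.187 (SE). TRIM10, a protein of terminal erythroid differentiation, ran 51.0, 83.6 and 117 CPM in the livers and 0, 0.373 and 1.04 CPM in the hearts, −7.65 ± 0.519. The summed level of the list ran 8588 to 12222 CPM in the livers and 557 to 747 CPM in the hearts. CA1, an erythroid carbonic anhydrase, was the gene not called, with at most 0.405 CPM in any sample.

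Globins did not all move with the red cell genes. Of 10 tested, 8 were higher in the liver and 1 in the heart (median −4.53). HBM, an alpha-like globin, ran 425, 650 and 874 CPM in the livers and 3.48, 4.77 and 8.62 CPM in the hearts, and HBG, the fetal beta-like globin, 3249, 6495 and 11113 CPM against 379, 588 and 1034 CPM. Neither overlapped between the organs. HBE1, an embryonic beta-like globin of the first wave of red cells from the yolk sac, went the other way. It ran 481, 950 and 1945 CPM in the hearts and 24.8, 252 and 749 CPM in the livers, a log2 fold change of 1.79 ± 0.537 (SE, adjusted p = 0.00943, edgeR), and the groups overlapped. HBZ, the embryonic alpha-like globin, was not called, at 691 ± 310 CPM in the heart (SD, n = 9) against 655 ± 516 CPM in the liver (SD, n = 6). Recent copies within a globin cluster are close in sequence and could exchange reads in the counting. As a share of all counts, globins took 0.257 ± 0.129% in the heart (SD, n = 9) and 0.922 ± 0.408% in the liver (SD, n = 6), a difference of −0.665 percentage points (p = 0.000799, 2-sided exact permutation test). Within fetuses it was −0.568 percentage points (exact sign-flip p = 0.0625, the smallest that 5 fetuses can give).

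Other blood lineages followed the erythroid genes. All 10 megakaryocyte and platelet genes were higher in every liver than in every heart (median −4.59), led by GP6, the collagen receptor of platelets, at −7.67, and GP9, a subunit of the receptor for VWF, at −5.76. Of 16 genes of macrophages and granulocytes, 15 were higher in the liver and 0 in the heart (median −3.60). MARCO, a scavenger receptor of resident macrophages, ran 3.27, 6.19 and 8.85 CPM in the livers with 2 counts over all hearts, a ratio of 849 (95% counting interval 235 to 7015). PRTN3, a granule protease of early granulocytes, was at least 186-fold higher in the liver, with 0 counts in every heart. Of 10 genes of stem and progenitor cells, 4 were higher in the liver and 1 in the heart, where 29.9% and 23.8% of all genes were. MYB and SPI1, regulators of blood progenitors and myeloid cells, had log2 fold changes of −3.52 and −3.46. MECOM, a regulator that endothelium also expresses, was higher in every heart by 2.86, and KIT, a receptor of progenitors, was not called, at 3.01 ± 0.571 CPM in the heart (SD, n = 9) against 3.14 ± 0.664 CPM in the liver (SD, n = 6).

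Genes of hepatic stellate and biliary cells went both ways, with 5 of 11 higher in the heart and 6 in the liver. LRAT, which stores vitamin A in stellate cells, was higher in every liver at a log2 fold change of −3.08, and KRT7, a keratin of bile ducts, was higher in the liver at −3.21 with overlapping groups. SOX9, RGS5, CFTR, KRT19 and HGF were higher in the heart, by 2.27, 2.10, 1.95, 1.65 and 0.69. None of these 5 is restricted to the liver: SOX9 marks valves and RGS5 pericytes, and KRT19 is a keratin of many epithelia. With the fetus as a block, 2 were higher in the heart and 4 in the liver, and KRT7, RGS5, CFTR and HGF no longer passed (adjusted p = 0.100, 0.114, 0.0985 and 0.0647, edgeR). Leaving out 1 fetus ended the call of KRT7 (fetus 10, adjusted p = 0.0599), of SOX9 (fetus 3, 4 or 10, up to 0.0787) and of RGS5 (fetus 1, 2, 6, 8 or 10, up to 0.0653).

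**Figure D4:**
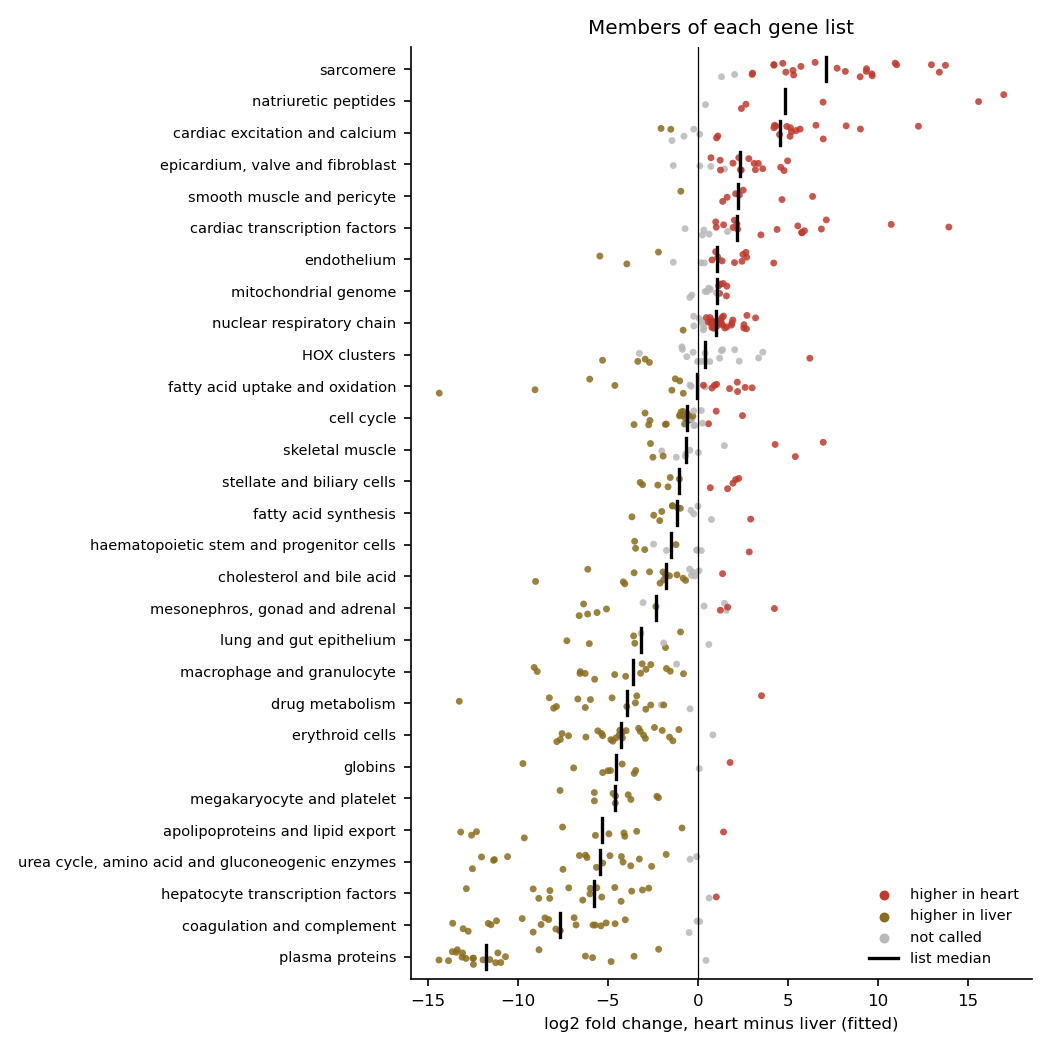
Fitted log2 fold change, heart minus liver, of each tested member of the 29 gene lists, with red for genes higher in the heart, gold for higher in the liver, grey for not called, and a black bar at the list median. Sarcomere genes (median 7.13) stand at the top and plasma proteins (median −11.76) at the bottom, while fatty acid uptake and oxidation (median −0.03) lies across 0.

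Energy metabolism differed in which genes were used more than in one direction. Of 20 genes of fatty acid uptake and oxidation, 9 were higher in the heart and 8 in the liver, with a median of −0.03. PPARGC1A, a coactivator of mitochondrial genes, was higher in every heart by 3.02 and CPT1B, the muscle gate for fatty acids into mitochondria, by 2.63. On the liver side, FABP1, a fatty acid carrier, had a log2 fold change of −14.38 ± 0.474 (SE), and SLC27A2 and SLC27A5, which activate fatty acids and bile acids, −9.06 and −4.62. PPARA, ACADVL, ACADL and ACADS, a regulator and 3 dehydrogenases of oxidation that both organs use, were higher in the liver by smaller amounts, between −1.44 and −0.81. Of 13 genes of fatty acid synthesis, 8 were higher in the liver and 1 in the heart (median −1.14), with DGAT2, which makes triglycerides, at −3.67 and SREBF1, the regulator of the pathway, at −2.45. ME1, which supplies reducing power, was the exception, higher in every heart by 2.94.

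Pairs of related genes, written with the form known from muscle first, were compared to show this choice. Of 24 pairs, 9 went in opposite directions with both genes called, and in all 9 the muscle form was higher in the heart. FABP3, the carrier of heart muscle, ran 40.4, 48.5 and 69.9 CPM in the hearts and 6.23 to 16.4 CPM in the livers. FABP1 ran 0, 0 and 0.171 CPM in the hearts and 371, 479 and 849 CPM in the livers. PKM, pyruvate kinase of muscle and many embryonic tissues, was higher in the heart by 2.99 and PKLR, that of liver and red cells, lower by −4.83. ACACB, the acetyl-CoA carboxylase that regulates oxidation, stood at 5.26, and ACACA, the enzyme of fat synthesis, at −1.42. All samples of the organs separated for each of these genes.

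Other opposite pairs spanned several pathways. Glycogen synthase GYS1 was higher in the heart by 1.64 and GYS2 in the liver at −3.58. Creatine kinase CKM was higher in the heart by 6.97 and CKB in the liver at −0.57, a call that did not hold with the fetus as a block or without fetus 4 (adjusted p = 0.201 and 0.0742, edgeR). For methionine adenosyltransferase, MAT2A stood at 0.64 (adjusted p = 0.0657 without fetus 8, edgeR) and MAT1A at −6.18. The calcium pumps ATP2A2 and ATP2A3 stood at 1.04 and −0.99, with ATP2A3 also known from platelets. In 8 pairs both genes moved the same way, 6 to the heart, such as LDHB and LDHA (3.41 and 2.93), and 2 to the liver. The 2 were the glucose transporters SLC2A4 and SLC2A2 (−1.28 and −8.75) and the glutathione peroxidases GPX3 and GPX1 (−1.58 and −3.26). The share of the muscle form in its pair was higher in every heart than in every liver for 17 of the 24 pairs.

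**Figure D5:**
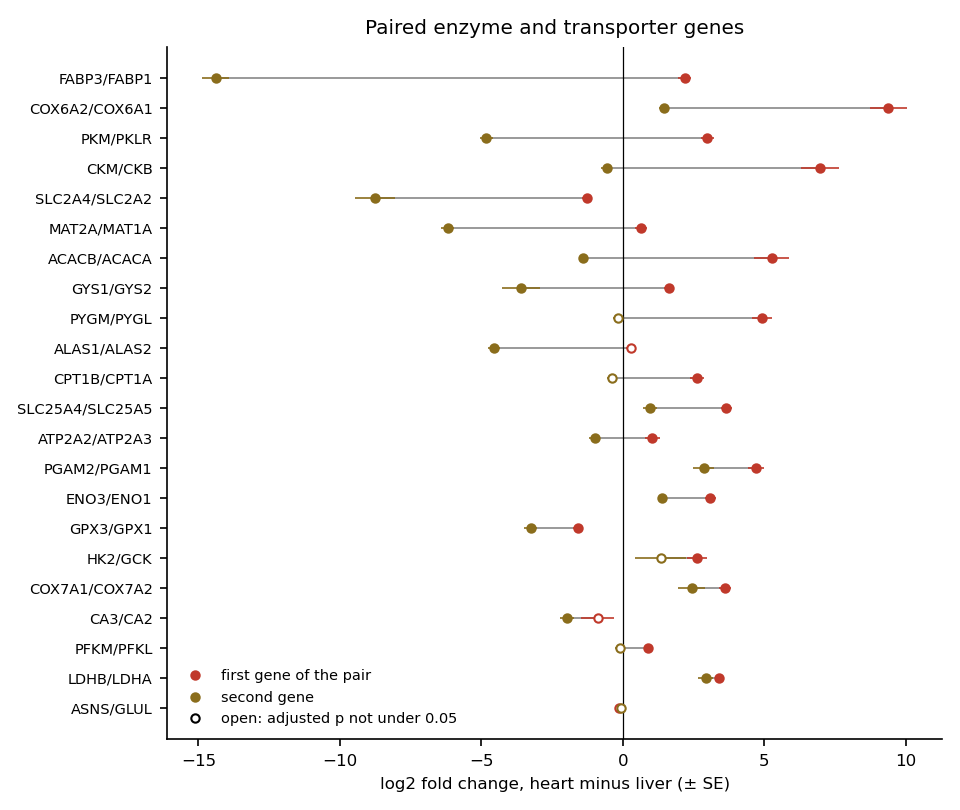
Fitted log2 fold change, heart minus liver, with its standard error for both genes of 22 of the 24 pairs, ordered by the distance between them. Red points are the first gene of the pair, gold points the second, and open points did not pass an adjusted p of 0.05. In 7 of these pairs filled red and gold points lie on opposite sides of 0, widest for FABP3 (2.19) and FABP1 (−14.38).

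The respiratory chain was measured on both genomes. Of 39 nuclear genes of the chain, 31 were higher in the heart and 1 in the liver (median 0.99). COX5A and ATP5MC3, subunits of cytochrome oxidase and of ATP synthase, were higher in every heart by 3.21 and 2.73, and UQCRQ, a subunit of complex III, was higher in the liver at −0.82 (with the fetus as a block, adjusted p = 0.0522, edgeR). Of the 13 protein-coding genes of the mitochondrial genome, 6 were higher in the heart and 0 in the liver (median 1.04), and none separated the organs. ND4L stood at 1.61 and ND6 at 1.59, while COX1, the gene with the most counts in both organs, ran 55480, 158808 and 332995 CPM in the hearts and 56962, 114903 and 187882 CPM in the livers and was not called (0.41, adjusted p = 0.707, edgeR). Within the 5 fetuses that have both organs, with the fetus as a block, 25 nuclear and 0 mitochondrial genes were higher in the heart. Calls of 3 mitochondrial genes also ended when 1 fetus was left out, that of ND2 without fetus 1, 2, 5 or 6, of ND3 without 1, 2, 4, 5, 6 or 8 and of ND4 without 1, 2, 4, 5 or 6, with adjusted p-values up to 0.110, 0.129 and 0.125, each without fetus 5 (edgeR). The share of all counts on mitochondrially encoded genes ran 17.1%, 39.0% and 57.3% in the hearts and 16.3%, 28.4% and 36.8% in the livers (p = 0.159, 2-sided exact permutation test). The difference between the means, 8.79 percentage points, was smaller than the SD of the hearts, 12.6 percentage points, and within the 5 fetuses it was 2.67 percentage points (exact sign-flip p = 0.812). Those 5 leave out fetuses 1 and 2, whose hearts had shares of 45.1% and 57.3%. Within all 8 fetuses as deposited the difference was 8.71 percentage points (exact sign-flip p = 0.180).

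The genes with the largest shares of counts outside the mitochondrial genome differed between the organs. In the heart, ACTC1 took 1.03 ± 0.161% of all counts, MYH7, the beta heavy chain of cardiac myosin, 0.888 ± 0.299% and TNNT2, cardiac troponin T, 0.772 ± 0.141% (SD, n = 9). In the liver, SERPINA1 took 1.97 ± 0.525%, AFP 0.791 ± 0.227% and HBG 0.684 ± 0.340% (SD, n = 6). Both organs gave much to H19, an imprinted RNA of fetal growth, with 0.522 ± 0.0573% in the heart and 0.857 ± 0.246% in the liver, and to the ribosomal RNA genes RN18S1 and LOC112444681. RN18S1 was higher in every liver at a log2 fold change of −1.96, in libraries that were made from poly(A) RNA.

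Cell cycle genes leaned to the liver. Of 27 tested, 18 were higher in the liver and 3 in the heart (median −0.61), and with the fetus as a block 12 and 3. RRM2, which makes the building blocks of DNA, ran 397, 569 and 672 CPM in the livers and 50.5, 73.5 and 87.7 CPM in the hearts, and CCNE1, a cyclin of entry into DNA synthesis, 49.2, 57.7 and 95.8 CPM against 2.69 to 9.39 CPM. Both separated the organs. The 3 genes higher in the heart were CDKN1A, an inhibitor of the cycle, by 2.48, CCND2, a cyclin of growth signals, by 1.02, and TOP2A, a topoisomerase of dividing cells, by 0.59. The groups overlapped for CCND2 and TOP2A. Erythroid genes moved to the liver at the same time, and their part in the cell cycle difference was not tested.

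Of 23 HOX genes, which mark position along the body, 1 was higher in the heart and 4 in the liver, below the share of all genes in both directions. The heart gene, HOXC9, rested on 1 library: fetus 1 had 6.96 CPM, and the livers had 1 count over the group, a ratio of 96.1 (95% counting interval 17.2 to 3796). It did not pass without fetus 1 or with the fetus as a block (adjusted p = 0.0694 and 0.387, edgeR). HOXA10 and HOXB8 were higher in the liver at −5.30 and −3.34, with at most 1.59 CPM in any liver, and HOXB8 did not pass without fetus 4 or 10 (adjusted p = 0.0831 and 0.0514, edgeR).

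Markers of neighbouring tissues were looked at for what else the dissected organs could hold. Of 13 skeletal muscle genes, 3 were higher in the heart and 3 in the liver. Over all genes these shares were 23.8% and 29.9%, so neither count was above them. CKM, ACTA1 and TNNT3, which the embryonic heart also expresses, were higher in the heart, TNNT3 by 5.42. MYH8 and MYH2, myosins of developing and fast muscle, were higher in the liver at −2.50 and −2.64, and TNNI2, a troponin of fast muscle, at −1.93. MYH8 ran 12.4, 18.1 and 24.9 CPM in the hearts, with 280, 245 and 58.1 CPM in the livers of fetuses 3, 4 and 5 and less than the highest heart in the others. Without those 3 livers its log2 fold change was 1.28 and did not pass (adjusted p = 0.200, edgeR). With the fetus as a block 1 gene of the list was higher in the liver, and MYH8 and MYH2 did not pass (adjusted p = 0.263 and 0.192, edgeR). MYH8 also did not pass with all 8 livers as deposited (0.0665) or without fetus 3 or 4 (0.0786 and 0.0803), nor MYH2 without fetus 8 or 10 (0.0570 and 0.0806). The summed level of the list ran 410 to 1160 CPM in the hearts and 32.1 to 364 CPM in the livers.

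Of 9 lung and gut epithelium genes, 6 were higher in the liver and 0 in the heart (median −3.16). SFTPB, a protein of lung surfactant, and SHH, a signal of gut epithelium, had log2 fold changes of −7.29 and −6.04, and the summed level of the list was 19.7 to 56.7 CPM in the livers and 4.07 to 9.59 CPM in the hearts. CDX2 and PDX1, which define intestine and pancreas, were at 0 in every heart. Of 13 genes of mesonephros, gonad and adrenal, 6 were higher in the liver and 3 in the heart. Over all genes these shares were 29.9% and 23.8%, so the heart count was not above its share. The summed level of the list was 81.3 to 156 CPM in the livers and 18.9 to 28.5 CPM in the hearts. LHX9, a factor of gonadal ridge that liver mesenchyme also expresses, ran 1.31, 3.37 and 7.75 CPM in the livers and at most 0.171 CPM in the hearts. STAR, AMH and CYP17A1, genes of steroid and testis function, were higher in the heart, by 1.25 for STAR and 1.66 for AMH, while CYP17A1 had at most 0.357 CPM in any heart and 0 counts in the livers. With the fetus as a block none of these 3 passed (adjusted p = 0.0526, 0.0524 and 0.535, edgeR), and CYP17A1 did not pass without fetus 3 or 4 (0.0533 and 0.0543). The part of neighbouring tissue in these values was not tested.

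Some genes of the lists gave no value. MYOZ2, PLN, APOC3, SERPIND1, ASL, CYP1A2, CYP2E1, NDUFA1, CCND1, HOXA4, HOXA5, SOX2 and PTF1A are listed at 0 in every heart and liver library, although ASL, NDUFA1 and CCND1 are used by most cells, and nothing is drawn from these zeros. BAAT, CYP3A4, CYP3A5, HBG2, PAX7 and SRY had no match by symbol in the gene table.

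Genes seen in 1 organ only were counted as those with at least 10 counts in every sample of the organ and at most 2 in every sample of the other, over the 9 hearts and 6 liver samples. There were 62 in the heart, 38 of them protein coding, and 106 in the liver, 81 of them protein coding, 168 in all and 155 with all 8 livers as deposited. Beside NPPA, NPPB, NKX2-5 and LMOD2, the heart set held LRRC10, a regulator of heart muscle growth, with 1079 to 3112 counts per heart and 0 in every liver, and SYNPO2L, an actin-bundling protein of the sarcomere, with 412 to 811 and 0. It held 4 members of the IRX family, of which IRX5 had 210 to 624 counts and IRX1 132 to 319 per heart, both with 0 in every liver. PNMT, the enzyme that makes adrenaline, had 76 to 214 counts per heart and 0 in every liver.

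The liver set ranged from secreted proteins to regulators. APOH had 4877 to 17365 counts per liver and at most 2 in any heart, and AGXT2, an aminotransferase of mitochondria, 1083 to 3645 and 0. CREB3L3, a liver factor released from the endoplasmic reticulum, had 179 to 592 counts per liver and 0 in every heart, and SERPINA7, the carrier of thyroid hormone, 207 to 621 and 0. MIR122, the precursor gene of the most abundant microRNA of hepatocytes, had 38 to 199 counts per liver and at most 1 in any heart. CEBPE, a factor of granulocytes, had 12 to 86 counts per liver and at most 2 in any heart.

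Some liver genes jumped between libraries of the same organ. In 333 genes, each of the 8 liver libraries held either at most 2 counts or at least 300, with both kinds present. This rule chose the genes, so none of their 2664 values could lie between, and nothing is read from that gap. In the hearts the same rule found 1 gene, PTH, the parathyroid hormone, with 955 counts in fetus 3 and 0 in the other 8 hearts. Of the 1938 low values in the liver, 1104 were 0, 833 were 1 and 1 was 2. The value 1 was not spread over the libraries: all 284 low values in the liver of fetus 1 were 1, and all 284 in fetus 2 were 0. Over the whole table, 853, 1030 and 977 genes were at exactly 1 count in the livers of fetuses 1, 8 and 10, against 46 to 87 in the other livers and 150 to 286 in the hearts. No source used here describes a step that sets such values, and whether they come from the organs or from how the counts were made cannot be told apart, so levels and fold changes that rest on them are those of the count table.

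The livers of fetuses 8 and 10, which are distinct samples, held low values together in 323 of the 333 genes, and that of fetus 9, a sum of those libraries within sampling noise, was low in the same 323. The livers of fetuses 1 and 2, counted as 1 sample, were low in 284. In 274 genes all 5 of these livers were low. High values lay mostly in fetuses 3, 4 and 5, with 187, 176 and 240 genes, and these genes took 1.85%, 1.64% and 1.67% of the counts there, against 0.0249% to 0.175% in the other livers. All 3 are of the ET_D7 group, as are fetuses 1 and 2.

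The genes that jump are named here by where they were high. High only in fetus 5 were 72 genes, among them ZFP69B, OPRL1, SYP, IFIH1, RSPO4, SEMA7A, HSPB7, GPR37, HOXC6, NCAN, FOXE1, NLRC3 and DUSP2. High in fetuses 3, 4 and 5 were 47, among them MYL2, TNNC2, CDHR4, PABPC4L, CD52, CPLX2, EPHB6, SYT11, SLC18A1, KLF4, AMPD1, PCDH19, GLP1R and GABRA2. High in 3 and 5 were 38, with ZNF211, LONRF3, FBXO41, HBE2, STING1, VGLL2, CD101, CLEC4A, GDAP1 and WNT7B. High only in 3 were 35, with SPINK5, ZP3, LGI1, KLF14, ZFP90, CYP1A1 and NANOS3. High only in 4 were 31, with OLR1, CHODL, CHRNB2, UTS2, FABP6, PACSIN1 and REG4. High in 4 and 5 were 30, with KCNK3, MR1, EGR2, GDF9, EXOC8, IFIT2 and MYOM2, and high in 3 and 4 were 21, with NMUR1, CTHRC1, BBS5, LDB3, ITGB6 and VEGFD.

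A smaller set was low only in the ET_D9 livers. Low in fetuses 8, 9 and 10 and high in all others were 33 genes, among them ZDHHC13, DUSP19, HSPA13, C4BPB, EDNRB, IFNLR1, SAR1B, BOLA-DMB, TRPC1, DEFB1, SLAMF7, NOS3, ZNF641, RHOJ, TIGAR, VANGL2, RADIL and SFTPC. Low only in fetuses 1 and 2 were RIMBP2, RHOBTB2, TSPYL5, DKK3 and SLC6A7, and high only in those 2 were BOLA-DRB3, SCN11A and FLT3. MYH7 was low in fetuses 1, 2, 4 and 10 and held 398 to 1275 counts in the other livers, beside at least 151203 in every heart. The remaining genes took 6 other patterns. Of all 333, 281 are in the gene table, 209 as protein coding, 46 as long noncoding RNA and 18 as pseudogenes.

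MYL2 had the most counts of the genes that jump. It had 40909, 23007 and 12290 counts in the livers of fetuses 3, 4 and 5 and 0 or 1 in the other 5, beside 41924 to 129290 in the hearts. TNNC2, the calcium sensor of fast skeletal muscle, had 11940, 8721 and 8479 counts in those livers and 0 or 1 in the others, beside only 115 to 391 in the hearts. CDHR4, a cadherin-related protein, had 14150, 3762 and 8246 counts in the same 3 livers and 13 to 28 in the hearts. ZFP69B, a zinc finger protein, had 15256 counts in fetus 5, at most 1 in every other liver, and 25 to 94 in the hearts. Most genes that jump were not absent from the heart: 121 had a count in every heart and 15 had none in any heart.

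These genes enter the comparison of the organs. Of the 333, 288 were called higher in the liver, 5 in the heart and 40 not called, beside 53.7% called over all genes. The rule that chose them asks for at least 300 counts in some livers and sets this lean, so nothing is read from it. The fitted values of those high in few livers turn over with the libraries used. TNNC2 had a log2 fold change of −5.22 over the 6 livers and of 7.56 without fetuses 3, 4 and 5, and ZNF211 of −4.88 and 6.53. HBE2, the globin with the largest fitted fold on the liver side, had 1045 and 4270 counts in fetuses 3 and 5 and 0 or 1 in the other livers. Over all genes, 7129 were higher in the liver, 6905 with the genes that jump left out, 5753 without the livers of fetuses 3, 4 and 5 and 6453 without those of fetuses 1, 2, 8 and 10. Both fits without livers also had fewer samples.

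The last question was whether the difference between heart and liver varied with the transfer group. In a fit with an organ by group term, 433 of 23869 genes passed (1.81%). The difference was higher in ET_D9 for 328 (1.37%) and lower for 105 (0.44%). After the liver of fetus 9 was left out, the ET_D9 livers were those of fetuses 8 and 10. Of the 328 genes, 234 (71.3%) had at most 2 counts in the livers of fetuses 8, 9 and 10, and of the 105, 56 had at most 2 counts in the livers of fetuses 1 to 5. Low livers in 1 group themselves favor such calls, and the share of all genes tested with such low counts was not taken. Over all genes tested, 197 had at most 2 counts in the livers of fetuses 8, 9 and 10 and at least 10 in every other liver. Of these, 164 were among the 328. The 5 genes with the smallest p-values were all genes that jump. The count moved with single fetuses, to 152 genes without fetus 8, 200 without fetus 10 and 701 without fetus 3. It was 267 with the fetus as a block, 272 with fetal weight in place of the transfer group, 943 with all livers as deposited, 966 without the livers of fetuses 3, 4 and 5 and 1362 in DESeq2.

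NOS3, endothelial nitric oxide synthase, had 842, 859, 509, 603 and 1224 counts in the livers of fetuses 1 to 5, and 1, 0 and 1 in those of fetuses 8, 9 and 10, beside 198 to 647 in the hearts. Its interaction was 9.26 ± 0.472 (SE) on the log2 scale (adjusted p = 2.93e-08, edgeR). DUSP19, a phosphatase of stress signaling, had an interaction of 10.92 and VANGL2, a protein of planar cell polarity, one of 8.73, with the same low livers. ZNF641, a zinc finger protein, had 9.19 and the unnamed LOC112442630 had 8.98. Of the 16 genes on the endothelial list, none is among the genes that jump. Transfer group and fetal weight vary together, and the groups hold few distinct livers, so group, weight and library cannot be told apart here.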

How the data were processed

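RNA of whole fetal hearts and livers was sequenced as stranded poly(A) libraries with paired reads. Per the labels and the methods of the study, the authors used Trimmomatic for trimming, STAR (2.7.0b) for mapping to the bovine genome (ARS-UCD1.3) and featureCounts (Subread 2.0.3) for counting. The authors deposited whole-number counts for 35092 genes named by Entrez identifiers. Options for strand and for reads with several matches are not given in the sources used here, so overlapping genes and near-identical copies are uncertain. Samples of low RNA quality had been discarded, 1 heart and 2 livers among them. Symbols came from the RefSeq gene table of ARS-UCD2.0, which matched 31630 identifiers.

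Heart and liver counts were normalized together with TMM and tested with edgeR's quasi-likelihood test (edgeR 4.0.16, R 4.3.3) with Benjamini-Hochberg adjustment over all 23869 genes with a count in the fit. The design planned for 17 libraries was kept but for the liver libraries, where the nearly identical pair was replaced by its rounded mean and the liver of fetus 9 left out, after the counts were seen. A gene was called at an adjusted p under 0.05. The log2 fold change is heart minus liver. A gene with 0 counts over an organ was given a bound from a floor of 3 counts over that group, and counting intervals (95%) and bounds cover counting error only. Single values were compared by 2-sided exact permutation tests over the 5005 assignments of samples (scipy 1.17.1). On simulated counts for the same 15 samples with 23508 genes, 100 genes were changed by 1 and 100 by 2 on the log2 scale. All other genes were left unchanged. Of the changed genes, edgeR recovered 36% and 80%. The real comparison called 53.7% of genes, and the adjustment of p-values depends on that share, so 36% and 80% do not measure its power.

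The members and the gene lists were chosen with earlier results of these data known. Genes were named by rule: in each organ, the 12 largest folds among called genes that separated the organs at a mean of at least 100 CPM, the 10 largest shares of counts, up to 4 members of each list by fold together with members called against their list, the opposite pairs, the 10 genes that jump with the most counts and the 5 smallest interaction p-values. Genes named beyond it were chosen after their values were seen, and some genes that the rule names are not reported here. Heart and liver numbers of the same fetus come from the same animal and so pair the samples. Over 12265 genes, the deviations of same-fetus samples correlated at 0.02, 0.02, 0.02, 0.35 and −0.30 for fetuses 3, 4, 5, 10 and 8. Alternatives were DESeq2 (1.42.0) and its size factors, a filter of at least 10 counts in at least 8 libraries, leaving out mitochondrial genes, genes that jump or each fetus, adding the gonad libraries, and the fetus as a block. Added after the data were seen were the 8 livers as deposited, alone and with the block, and fits without the livers of fetuses 3, 4 and 5 or of fetuses 1, 2, 8 and 10.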

Additional observations from a re-analysis of the deposited data

Results flagged for a closer look

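Of 79 groups of samples checked for 1 sample far from the others, 2 had one, and chance gives about 1 in 20. The summed level of the genes of fatty acid uptake and oxidation was 652 CPM in the heart of fetus 3, below the other hearts, which lay between 719 and 777 CPM (median 749). The summed level of the genes of mesonephros, gonad and adrenal was 156 CPM in the liver of fetus 8, above the other livers, which lay between 81.3 and 100 CPM. HSD3B1, an enzyme of steroid synthesis, held most of that gap, with 92.0 CPM in that liver and 34.8 to 49.5 CPM in the others.

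The difference between heart and liver differed between ET_D9 and ET_D7 in 433 genes by the organ by group term of edgeR's quasi-likelihood test. The 5 genes with the smallest p-values had interactions of 9.26 (NOS3), 10.92 (DUSP19), 8.73 (VANGL2), 9.19 (ZNF641) and 8.98 (LOC112442630) on the log2 scale, each with 0 or 1 counts in the livers of fetuses 8, 9 and 10 and at least 305 in every other liver, values that cannot be told apart from an effect of how the liver counts were made. In the hearts these genes stayed between 68 and 647 counts in both groups. Of the 433 genes, 67 are among the liver genes that jump.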

How the results depend on the processing

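Of 146 named genes, 105 stayed on the same side of the threshold in all 21 alternatives, and the 24 genes with the largest folds were among them. Those 24 were chosen as called genes that separated the organs. That choice favors a stable call, so nothing is read from it. Of 3035 alternative values, 24 changed sign. With the fetus as a replicate block over the 5 fetuses with 2 distinct organs, 4241 genes were higher in the liver (3689 over 2-fold), against 7129 (5742), while the same samples without the block gave 5319. Higher in the heart were 4150 (3505) with that block, against 5682 (4126), and 4602 in the same samples without it. Under the block the sign of COX1 (−0.13), CYTB (−0.13), ND1 (−0.0036), LOC112448582 (0.19), ZFP69B (2.62) and ZNF211 (0.95) turned, and without it COX1 stood at −0.10. The globin share differed by −0.568 within fetuses (exact sign-flip p = 0.0625, the smallest that 5 fetuses can give). The block moved no other count of calls over all genes by over 1.5 times apart from the interaction below, and the lists and genes whose calls it ended are given with their values above for mitochondrial, stellate and biliary, skeletal muscle, HOX and mesonephros, gonad and adrenal genes. With the block over all 8 fetuses as deposited, 101907653 (0.31), LOC112448582 (2.02), MYH8 (0.43), PABPC4L (0.41), TNNC2 (1.77), ZFP69B (3.77) and ZNF211 (2.87) turned. Without the livers of fetuses 3, 4 and 5, 101907653 (4.28), CDHR4 (4.35), LOC112448582 (5.69), LOC618289 (4.82), MYH8 (1.28), PABPC4L (6.05), TNNC2 (7.56), ZFP69B (5.54) and ZNF211 (6.53) turned, the counts behind their liver values being in those livers, and without each fetus in turn ZFP69B ranged from −5.91 to 6.07, the latter without fetus 5. Leaving out each fetus gave 5301 to 5588 heart and 6448 to 6995 liver genes (3907 to 4120 and 5143 to 5680 over 2-fold), mitochondrial shares 6.03 to 11.6 points higher in the heart (2.67 within the 5 fetuses and 8.71 within all 8 as deposited), globin differences of −0.787 to −0.559, and 8 to 10 opposite pairs. The number of genes with a count in thinned libraries did not separate the organs (293 more in the heart, exact permutation p = 0.492). Leaving out each fetus it ranged from −40.6 (without fetus 3) to 558, within fetuses it was 787 (exact sign-flip p = 0.188), and with at least 10 counts it was −661 (p = 0.0256, exact permutation test). The 433 interaction genes became 267 with the block, 943 with all livers as deposited, 966 without the livers of fetuses 3, 4 and 5, 272 with fetal weight in place of the transfer group and 1362 in DESeq2, and 152 to 701 without each fetus (152 without fetus 8, 200 without fetus 10 and 701 without fetus 3), where leaving out fetus 8 or 10 leaves 1 liver of ET_D9 that is assumed to vary like the others. The causes of these moves were not tested. With at least 100 counts against 0, 28 genes were seen in 1 organ only in place of 168. Genes that jump numbered 0 at 0 against 300 counts, 697 at 2 against 100, 700 at 5 against 100 and 195 at 2 against 1000. Depth limits what 0 to 2 counts in a library can show of a gene's level.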

Other observations

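Genes higher by over 2-fold in the same organ also lay next to each other. This was looked at after the values were seen, with the order of 18050 protein-coding genes taken from the gene table of ARS-UCD2.0. Of these, 23.3% were called over 2-fold higher in the liver and 19.7% in the heart. Runs of 5 or more neighbours called the same way numbered 43 for the liver and 13 for the heart. The longest had 17 genes in the liver and 7 in the heart. Neighbours of 1 family can share reads, so the members of a run are not independent measurements.

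A run of 9 held the cathelicidins CAMP and CATHL1 to CATHL6, antimicrobial peptides stored in granulocytes, with a median log2 fold change of −7.39. A run of 7 held beta-defensins such as DEFB1, DEFB4A and DEFB7 (median −6.74), in which DEFB1 is a gene that jumps. The run of 17 began with NLRP12 and was otherwise made of unnamed loci (median −5.67). Another run of 9 held the SERPINA3 group with SERPINA4, SERPINA5 and SERPINA12 (median −8.57), secreted protease inhibitors.

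LY9, SLAMF7, CD48, SLAMF1, CD84 and SLAMF6, receptors of blood cells, lay in a run of 7 (median −3.70), in which SLAMF7 is a gene that jumps. TAP1, TAP2, PSMB8 and PSMB9, which prepare peptides for presentation, lay with BOLA-DOB and BOLA-DMB in another run of 7 (median −3.54), in which BOLA-DMB jumps. A run of 11 held replication-dependent histone genes such as H2BC17, H4C13 and H3C10 (median −3.05). In the heart, MYH7 and MYH6 were neighbours in a run of 6 (median 5.15), in which MYH7 is a gene that jumps in the liver, and IRX1, IRX2 and IRX4 lay in a run of 5 (median 9.04).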
